A study of Mus musculus with 4 samples.

Results

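The 10 genes described here make, remodel and oxidise polyunsaturated lipids: Acsl3, Acsl4, Lpcat3, Fads1, Fads2, Elovl5, Alox5, Alox12, Alox15 and Por. They were chosen by name, and each was given a window that runs from 5 kb before to 5 kb after its annotated gene span (RefSeq, GRCm38.p6, the mm10 assembly). All 10 were found among 21887 protein-coding genes, and their windows add up to 561 kb. The data are 4 lists of peaks from CUT&Tag, an assay in which an antibody directs a transposase to the chromatin around its target, here Sub1, a DNA-binding cofactor of transcription. Hematopoietic stem cells (HSCs), sorted from mouse bone marrow as CD48-, CD150+ cells of the LSK fraction, gave the libraries HSC 1 and HSC 2. Leukemia stem cells (LSCs), taken from mice with disease driven by MLL-AF9 as CD34+, CD16/32+ cells that were c-Kit+ but Lin- and Sca-1-, gave LSC 1 and LSC 2. Donors of both groups were Nup214 fl/+, that is, they carried 1 floxed allele of the gene for a nuclear pore protein. The labels name no Cre, no treatment and no age, do not say how MLL-AF9 was introduced, and do not say whether replicate libraries derive from different animals, so a p-value here measures only the spread between libraries, which may be technical. The series title links targeting of this nucleoporin to ferroptosis, a cell death that proceeds through peroxidation of lipids, and the comparison asks where Sub1 lies at the genes of that chemistry in normal and in leukemic stem cells.

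Polyunsaturated fatty acids become targets of peroxidation once they sit in membrane phospholipids. Fads1, Fads2 and Elovl5 lengthen and desaturate dietary precursors, Acsl3 and Acsl4 attach coenzyme A to fatty acids, and Lpcat3 places the activated polyunsaturated chains into lysophospholipids. Lipoxygenases (Alox5, Alox12, Alox15) add oxygen to these chains by enzyme catalysis, and in myeloid cells Alox5 begins leukotriene synthesis, while Por, the microsomal reductase that hands electrons from NADPH to cytochrome P450 enzymes, can feed peroxidation by another route.

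The lists of HSC 1, HSC 2, LSC 1 and LSC 2 held 115881, 235680, 41097 and 34185 peaks. Where 4 values are given in a row they follow the order HSC 1, HSC 2, LSC 1, LSC 2, and a pair of values for a cell type follows the order of its libraries. Read totals were not given, and depth is measured by the background pileup that the caller's values imply, which was 3.07, 7.47, 4.54 and 4.50 reads. The main counts are therefore also given for equal-sized lists of the 34185 strongest peaks of each library. Each peak's fold is the authors' ratio of its read pileup to that background, and it describes or orders peaks within a library; pileup counts PCR-amplified reads, so its 95% Poisson intervals cover counting error alone. Set against the sort, Sub1 peaks lay in the windows of 7, 7, 6 and 3 of 7 HSC marker genes (71.9%, 87.2%, 64.2% and 59.7% of all genes), with none at Slamf1 (the gene for CD150) in either LSC library and none at Mecom, Hlf or Fgd5 in LSC 2. Within 1 kb of the start, Mecom, Hlf and Fgd5 had no peak in any library, and Slamf1 had one in HSC 2 alone. With equal-sized lists the 7 HSC markers had start peaks at 3, 2, 2 and 1 (48.1%, 47.9%, 53.6% and 51.9% of all genes). They had 2.73, 4.92, 6.32 and 4.45 kb under peaks, and the groups overlapped in both. Of Hoxa9 and Meis1, targets of MLL fusions, 2, 2, 2 and 1 had a peak in the window and 0, 1, 0 and 0 at the start. All 6 genes of the granulocyte-monocyte progenitor and LSC gate list had a peak in each library, with 42.0, 55.0, 45.3 and 44.9 kb under peaks. With equal-sized lists start peaks were found at 5, 5, 6 and 6 of them. The length under peaks was then 36.4, 40.1, 44.5 and 44.9 kb, higher in both LSC libraries than in either HSC library. All 4 libraries bear the cell type hematopoietic stem cell, so the groups rest on the titles, and the target rests on the antibody label, since peak names begin with H4-Cut and no label explains it.

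The promoters of 6 genes are shown because they bracket the patterns below: Por carried the strongest start peak in each library, Acsl4 and Elovl5 had one in all 4, Fads2 lacked one in HSC 1, Alox5 ranked higher in the HSC libraries, and Alox12 had a weak one in LSC 1 alone. Each line gives the 250 bases before the annotated start, 5′ to 3′ on the coding strand, from RefSeq's GRCm38.p6. Capitals mark GC boxes (GGGCGG, or CCGCCC on the other strand) and CCAAT boxes (CCAAT, or ATTGG on the other strand); the 2 GC boxes of Acsl4 overlap and form 1 run.
Por (chr5:135688895-135689144, plus strand): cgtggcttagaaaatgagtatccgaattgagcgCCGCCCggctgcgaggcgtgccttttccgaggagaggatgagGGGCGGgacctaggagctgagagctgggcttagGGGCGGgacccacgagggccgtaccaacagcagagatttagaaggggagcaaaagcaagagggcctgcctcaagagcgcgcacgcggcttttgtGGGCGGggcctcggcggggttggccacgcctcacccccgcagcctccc
Acsl4 (chrX:142390536-142390785, minus strand): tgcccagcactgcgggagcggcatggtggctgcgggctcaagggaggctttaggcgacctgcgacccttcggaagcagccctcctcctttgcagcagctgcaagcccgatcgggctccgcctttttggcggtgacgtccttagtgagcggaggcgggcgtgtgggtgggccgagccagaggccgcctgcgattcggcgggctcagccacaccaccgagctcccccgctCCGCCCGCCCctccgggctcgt
Elovl5 (chr9:77917115-77917364, plus strand): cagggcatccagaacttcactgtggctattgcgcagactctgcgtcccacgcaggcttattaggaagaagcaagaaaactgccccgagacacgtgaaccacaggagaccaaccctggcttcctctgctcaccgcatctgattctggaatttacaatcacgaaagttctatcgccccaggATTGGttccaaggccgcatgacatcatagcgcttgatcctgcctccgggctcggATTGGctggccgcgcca
Fads2 (chr19:10101504-10101753, minus strand): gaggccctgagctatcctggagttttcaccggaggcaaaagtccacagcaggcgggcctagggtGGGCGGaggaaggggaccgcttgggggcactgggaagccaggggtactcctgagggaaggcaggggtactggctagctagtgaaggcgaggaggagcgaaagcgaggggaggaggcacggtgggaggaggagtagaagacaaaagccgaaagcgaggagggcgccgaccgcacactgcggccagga
Alox5 (chr6:116461179-116461428, minus strand): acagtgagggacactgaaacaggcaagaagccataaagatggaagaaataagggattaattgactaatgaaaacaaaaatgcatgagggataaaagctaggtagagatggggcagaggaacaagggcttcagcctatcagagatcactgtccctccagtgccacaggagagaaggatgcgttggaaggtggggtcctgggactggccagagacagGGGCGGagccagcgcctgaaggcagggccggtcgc
Alox12 (chr11:70255371-70255620, minus strand): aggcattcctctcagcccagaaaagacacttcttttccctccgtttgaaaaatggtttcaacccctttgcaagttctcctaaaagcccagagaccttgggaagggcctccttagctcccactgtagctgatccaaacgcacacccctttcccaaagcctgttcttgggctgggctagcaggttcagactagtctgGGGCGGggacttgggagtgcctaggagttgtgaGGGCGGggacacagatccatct

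Sub1 peaks were found at the polyunsaturated lipid genes in both cell types. In the deposited lists, 10, 10, 10 and 9 of the 10 windows held a peak, where 71.9%, 87.2%, 64.2% and 59.7% of all protein-coding genes did. Peaks were present in all 4 libraries for 9 of 10 members, beside 58% of all genes, and the exception was Alox15, which had none in LSC 2. No member had peaks in HSC 1 and HSC 2 but in no LSC library (8.21% of all genes), and none had the reverse (0.0366%); without LSC 1, Alox15 would be such an HSC gene, 1 of 10. With equal-sized lists 8, 8, 10 and 9 windows held a peak (56.1%, 58.9%, 62.2% and 59.7% of all genes), and 7 members had one in all 4 libraries (52.2%). None was then in HSCs alone (0.416%), and 1, Fads2, was in LSCs alone (2.37%). Windows of the members were longer than those of other genes, with a median of 58.2 kb against 27.2 kb, and the part of this length in the counts was not tested.

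Within 1 kb of an annotated start, 7, 9, 9 and 8 members had a peak, where 55.9%, 64.1%, 54.3% and 51.9% of all genes did. Acsl3, Acsl4, Lpcat3, Fads1, Elovl5, Alox5 and Por had such a start peak in all 4 libraries, 7 of 10 beside 48.6% of all genes. The counts in equal-sized lists were 7, 6, 9 and 8 (48.1%, 47.9%, 53.6% and 51.9%), and 6 members kept a start peak in all 4 libraries (44.3%), since that of Acsl4 in HSC 2 was too weak for the list. No member had a start peak in HSCs alone in the deposited (2.77% of all genes) or equal-sized lists (0.324%). In LSCs alone there was none in the deposited lists (0.503%) and 1, Fads2, in the equal-sized lists (2.9%). For Fads1 and Alox15 no start was used, and a peak within 1 kb of either end of the gene was counted.

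**Figure D1:**
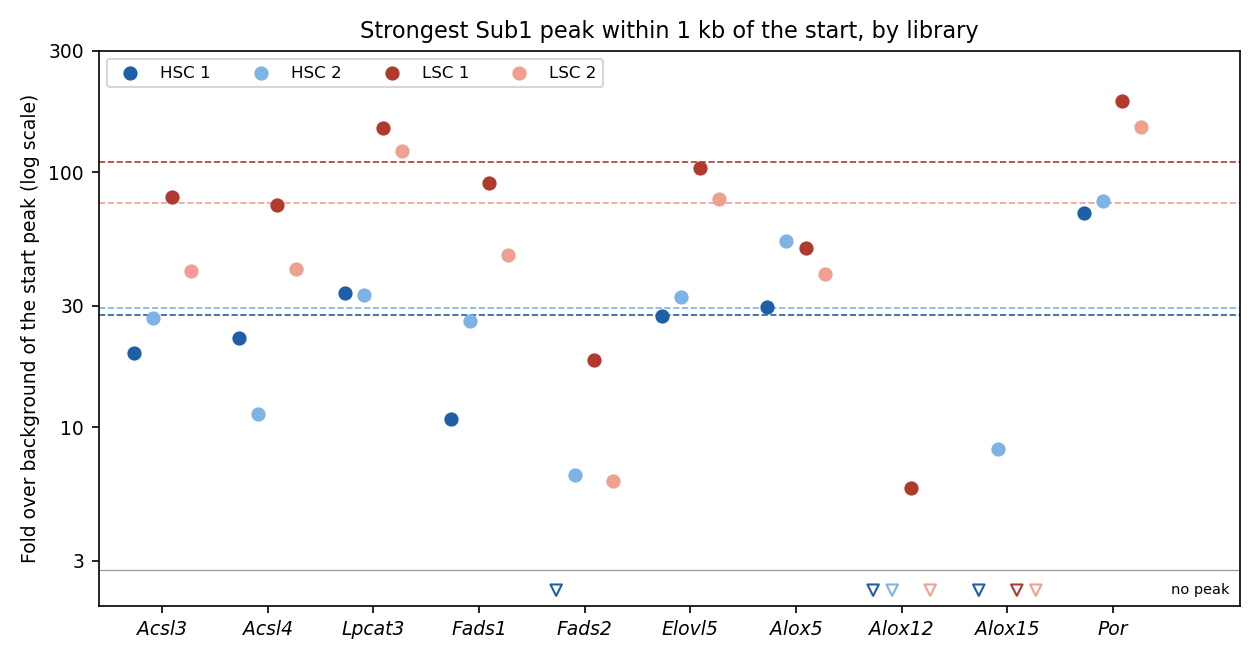
Fold over background of the strongest Sub1 peak within 1 kb of the start (log scale) for each gene, with 1 point per library. Dashed lines mark the library's median over all genes with a start peak, and open triangles mark where no peak was called. For Fads1 and Alox15, for which no start was used, the peak lies within 1 kb of either end of the gene. Por lies above the median line in each library, and Fads2, Alox12 and Alox15 have weak peaks or none; heights of different libraries are not on a common scale.

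The plot of start peaks by library shows both acyl-CoA synthetases below the median of each library. Medians over all genes with a start peak were 27.5 and 29.5 in HSCs and 109 and 76.1 in LSCs. At Acsl3, which activates long-chain fatty acids at the endoplasmic reticulum and lipid droplets (chr1:78657825-78707743), the start peak had a fold of 19.6 and 26.8 in HSCs and 80.4 and 40.9 in LSCs. Ranked within each library among the 10647 genes with a start peak in all 4, on a scale where 100 is the strongest, these stood at percentiles 24.8, 29.9, 28.8 and 21.3. The groups overlapped in this order. Acsl3 shares its annotated start with Utp14b, so a peak there belongs to both genes.

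Acsl4, the synthetase with a preference for arachidonic acid and other polyunsaturated chains (chrX:142317993-142390802), had start peaks of fold 22.4 and 11.3 in HSCs and 74.5 and 42.0 in LSCs. Their pileups were 90, 95, 412 and 230 reads, and their percentiles 30.9, 5.68, 25.9 and 22.1. HSC 2 stood lowest although it had the highest background of the 4 libraries, and the HSC libraries lay on either side of the LSC libraries. In HSC 2 the peak also ended at chrX:142390432, short of the start at 142390535, whereas the peaks of the other 3 libraries covered the start. Peaks covered more bases within 1 kb of the start in both LSC libraries than in either HSC library at 2 of 7 members, Acsl3 and Acsl4, beside 27.7% of the genes with a start peak in all 4 libraries; the reverse held for 0 of 7, beside 9.04%.

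Lpcat3, the acyltransferase of phospholipid remodelling (chr6:124663094-124704716), stood higher in the order of LSC start peaks than in that of HSC start peaks. The fold was 33.6 and 32.9 in HSCs and 150 and 121 in LSCs, from pileups of 136, 278, 829 and 664 reads. The percentiles were 57.3 and 40.3 in HSCs and 65.9 and 74.3 in LSCs, so the groups did not overlap. It was the only member of the 7 with LSC above HSC in this order, a pattern met by 23.8% of the ranked genes. The far end of its window reaches Emg1, where all 4 libraries had a peak with its summit beyond the window (fold 40.0, 43.9, 212 and 162), and the peak of LSC 2 alone reaches back into the window.

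Of the desaturases, Fads1 carried a peak at its low-coordinate end in each library, and Fads2 had none at its start in HSC 1. At Fads1 (chr19:10182877-10196874) the fold was 10.8 and 26.2 in HSCs and 91.3 and 47.2 in LSCs. HSC 1 stood apart from the rest, with a pileup of 43 reads (31.1 to 57.9) and a percentile of 7.77 against 28.8, 34.5 and 25.8. The strongest LSC peaks of the Fads1 window, with a fold of 234 and 211, lay at the neighbour Fen1, which encodes a flap endonuclease, and had their summits outside the window. HSC 1 and HSC 2 also had a peak over Fen1, with a fold of 48.4 and 85.5, but it began beyond the window edge and was not counted for Fads1.

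Fads2, the desaturase that acts before Fads1 in the same chain of reactions (chr19:10062765-10101503), had weak start peaks: those in HSC 2 and LSC 2 were the weakest of any member there, and that in LSC 1 was the weakest but for Alox12. No peak was called at its start in HSC 1. The fold was 6.49 in HSC 2 and 18.4 and 6.18 in LSCs, from 54 reads (40.6 to 70.5), 101 reads (82.3 to 123) and 33 reads (22.7 to 46.3). The intervals of LSC 1 and LSC 2, whose backgrounds were alike, do not meet. They treat amplified reads as independent, and the handling of duplicates is not given, so this does not show a difference beyond counting error. Fads2 entered the equal-sized lists of both LSC libraries and of neither HSC library. The weakest peak in those lists had a fold of 9.33 and 12.0 in HSCs but 5.23 and 3.63 in LSCs, so the lists reach to weaker peaks in LSCs. Among the 17092 strongest peaks of each library, its start peak was found in LSC 1 alone.

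Elovl5, the elongase of polyunsaturated chains (chr9:77917365-77984519), had start peaks of fold 27.3 and 32.6 in HSCs and 104 and 78.7 in LSCs. They stood at percentiles 42.1, 39.7, 41.3 and 48.4, and the groups overlapped. A further peak in all 4 libraries had its summit 6370, 6206, 6375 and 6332 bases before the start, outside the window but with the edges of the HSC 1 and LSC 2 peaks inside it. Its fold was 57.0, 60.0, 212 and 77.4, above that of the start peak in HSC 1, HSC 2 and LSC 1 and slightly below it in LSC 2.

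Among the lipoxygenases Alox5 carried a start peak in all 4 libraries. Alox12 had little at its start, and Alox15, for which no start was used, had little at either end. At Alox5 (chr6:116410071-116461178) the fold was 29.7 and 54.1 in HSCs and 50.5 and 40.0 in LSCs. The percentiles were 48.0 and 70.6 in HSCs and 15.7 and 20.7 in LSCs, so the groups did not overlap, and the means of 59.3 ± 16.0 and 18.2 ± 3.57 (SD, n = 2 each) differed by 41.1 points. HSCs stood above LSCs in this way at 2 of 7 members, Alox5 and Por, beside 23.1% of the ranked genes. Peaks also spread over more of the gene in HSCs: 16.8% and 18.6% of the Alox5 window lay under peaks in HSCs and 4.17% and 4.66% in LSCs. With equal-sized lists the values were 8.98%, 7.14%, 4.17% and 4.66%, and the groups still did not overlap.

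Markers of mature neutrophils, cells that use Alox5, moved in the same direction. Peaks lay in the windows of 10, 10, 9 and 9 of these 10 genes (71.9%, 87.2%, 64.2% and 59.7% of all genes), and Retnlg had none in either LSC library. Start peaks were found at 10, 10, 8 and 8 of them in the deposited lists (55.9%, 64.1%, 54.3% and 51.9% of all genes). In the equal-sized lists the counts were 10, 10, 7 and 8 (48.1%, 47.9%, 53.6% and 51.9%), and among the 17092 strongest peaks 10, 9, 5 and 6. Their windows had 88.3 and 109 kb under peaks in HSCs and 27.1 and 40.4 kb in LSCs, and in the equal-sized lists 72.1, 79.3, 24.2 and 40.4 kb. The median percentile of the 7 genes that could be ranked was 44.6, 42.1, 2.55 and 14.8. The LSK and Lin- gates are meant to remove such cells, and their part in the Alox5 result was not tested. In a sorted population fewer cells with a peak and a weaker peak in each cell cannot be told apart.

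At Alox12, the platelet-type lipoxygenase (chr11:70241457-70255380), LSC 1 alone had a peak within 1 kb of the start, with a fold of 5.77 from 31 reads (21.1 to 44.0), and it did not cover the start. The window nevertheless held the strong peaks of 2 neighbours at its other end: over Rnasek and 0610010K14Rik the fold was 60.4 and 69.2 in HSCs and 151 and 123 in LSCs. The 29.6%, 37.2%, 18.8% and 25.7% of the Alox12 window under peaks therefore include those neighbours. Peaks lay in 4, 7, 5 and 3 windows of 7 megakaryocyte and platelet markers (71.9%, 87.2%, 64.2% and 59.7% of all genes). Start peaks in the equal-sized lists lay at 0, 2, 1 and 0 of them (48.1%, 47.9%, 53.6% and 51.9% of all genes). Their windows then had 4.62, 9.22, 8.72 and 7.03 kb under peaks, and the groups overlapped in both.

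Alox15, a lipoxygenase that can oxidise chains within phospholipids (chr11:70344147-70390538), had many weak peaks in HSCs and nearly none in LSCs. Its window held 12 and 17 peaks in HSC 1 and HSC 2, 1 in LSC 1 and 0 in LSC 2, and the share under peaks was 7.77% and 13.6% in HSCs and 0.828% and 0% in LSCs. The strongest had a fold of 8.35 in HSC 1, 13.3 in HSC 2 and 6.85 in LSC 1. Of the peaks in the window, 0, 1, 1 and 0 were in the equal-sized lists, and the groups overlapped. At the ends of the gene HSC 2 alone had peaks, the stronger with a fold of 8.26. In the deposited lists, whose lengths differ, eosinophil and mast cell markers had a peak in 4, 5, 2 and 1 of 6 windows. Macrophage markers had one in 4, 5, 3 and 3 of 5 (71.9%, 87.2%, 64.2% and 59.7% of all genes). With equal-sized lists start peaks were found at 0, 0, 1 and 1 of the eosinophil and mast cell markers. They were found at 2, 2, 3 and 3 of the macrophage markers (48.1%, 47.9%, 53.6% and 51.9% of all genes). The length under peaks was 0.305, 0, 0.63 and 1.09 kb for eosinophils and mast cells, lower in HSCs, and 5.03, 9.19, 10.5 and 8.56 kb for macrophages, where the groups overlapped. The Lin- gates of both sorts are meant to remove these mature cells, and their part in the Alox15 values was not tested.

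Por (chr5:135670040-135735326) carried the strongest start peak of the 10 members in each of the 4 libraries. The fold was 69.5 and 77.0 in HSCs and 191 and 151 in LSCs, from pileups of 282, 651, 1056 and 828 reads. Its percentiles were 96.3, 88.9, 82.1 and 85.3, so both HSC libraries stood above both LSC libraries, with means of 92.6 ± 5.21 and 83.7 ± 2.27 (SD, n = 2 each). The summits lay 61, 94, 93 and 93 bases after the start at 135689145, which is inside the annotated span because that span begins further upstream; the promoter printed above also overlaps the noncoding Gm40345. Away from the start, 2 stretches merged from overlapping peaks held peaks of all 4 libraries. They were chr5:135698339-135704680, with a highest fold of 17.9, 24.2, 7.76 and 10.2, and chr5:135685397-135687046, with 9.33, 18.1, 15.0 and 4.91.

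**Figure D2:**
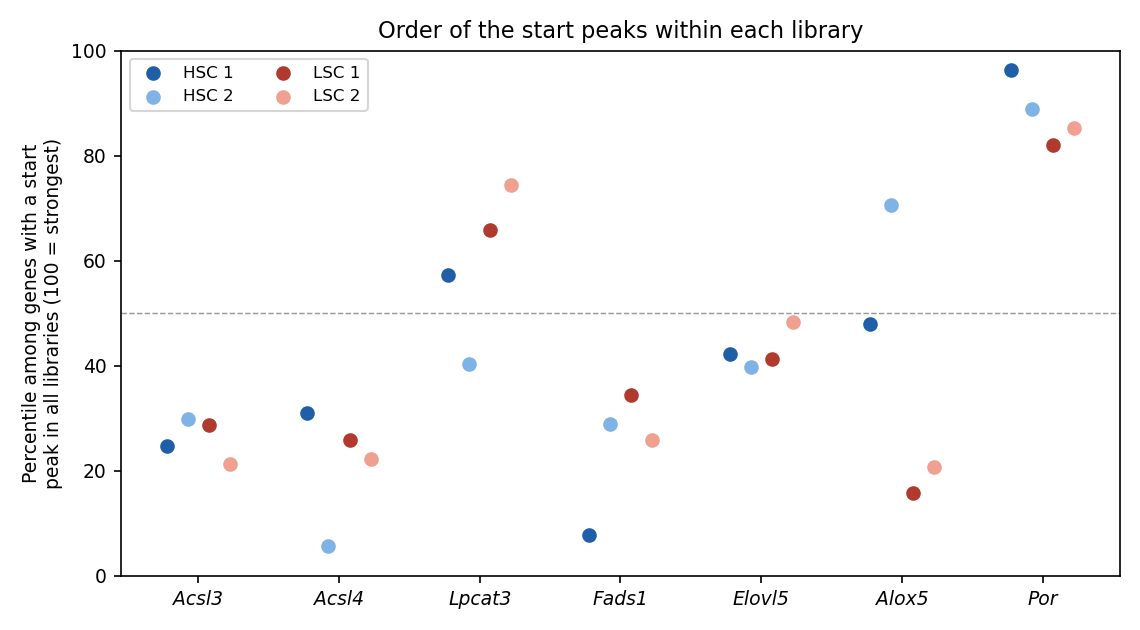
Percentile of each gene's strongest start peak (100 is the strongest) among the 10647 genes with a start peak in all 4 libraries, 1 point per library, for the 7 members that could be ranked; the dashed line is the middle of the order. The LSC points lie above the HSC points at Lpcat3 and below them at Alox5 and Por. The groups overlap at Acsl3, Acsl4, Fads1 and Elovl5. For Fads1 the peak ranked lies within 1 kb of either end of the gene.

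In the plot of percentiles the group means differed most at Alox5, by 41.1 points (HSC minus LSC), and next at Lpcat3, by −21.3 points, while the other 5 lay between −11.8 at Fads1 and 8.88 at Por. The median percentile of the 7 was 42.1, 39.7, 34.5 and 25.8, where the ranked genes have a median near 50.0 by construction. For 39 of 58 other genes of polyunsaturated and related lipid metabolism it was 48.7, 51.6, 46.5 and 45.0.

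HSC libraries had more peaks over the members than LSC libraries. The 10 windows held 114 and 140 peaks in HSCs and 32 and 33 in LSCs, a ratio of geometric means of 3.89 (log2 difference 1.96; two-sided exact permutation test, p = 0.33, the smallest that 2 libraries against 2 allow). All protein-coding genes showed a ratio of 3.37. The bases under peaks were 76.0 and 107 kb in HSCs and 34.8 and 43.5 kb in LSCs, a ratio of 2.32 (log2 difference 1.21, exact permutation p = 0.33), beside 1.82 for all genes. After equalising the lists, the numbers were 36, 26, 29 and 33 (log2 difference −0.016, exact permutation p = 1.0) and the lengths 41.9, 43.1, 33.8 and 43.5 kb (0.15, p = 1.0 by the same exact test), so the groups overlapped in both.

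**Figure D3:**
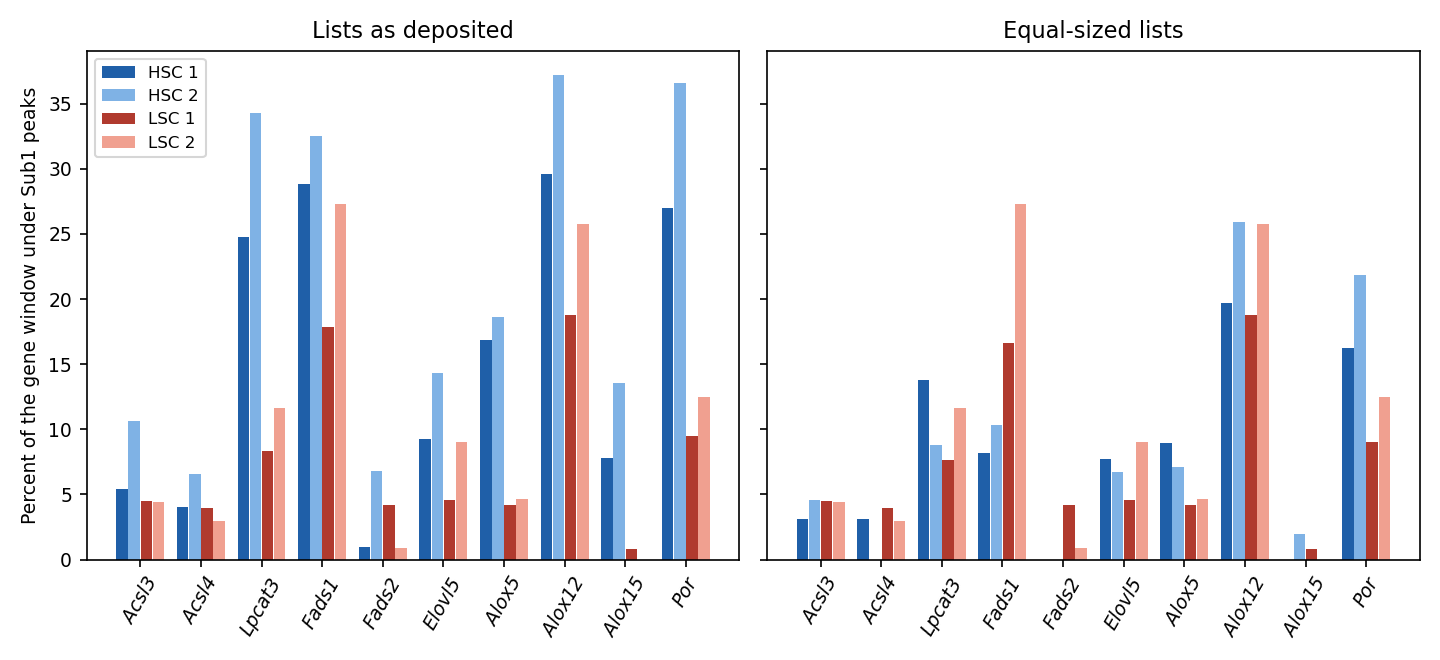
Percent of each gene's window under Sub1 peaks, 1 bar per library, in the lists as deposited (left) and in the lists of 34185 peaks per library (right). In the deposited lists both HSC bars exceed both LSC bars at each gene but Fads2; in the equal-sized lists this holds at Alox5 and Por, and the LSC bars exceed the HSC bars at Fads1 and Fads2.

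Gene by gene, the number of peaks was higher in both HSC libraries than in either LSC library at 9 of 10 members, all but Fads2, beside 57.9% of all genes, and the reverse held at none (0.21%). Por had 29, 29, 6 and 8 peaks, Lpcat3 had 23, 23, 5 and 6, and Fads2 had 1, 7, 3 and 1. The far end of the Por window reaches Tmem120a, a protein-coding neighbour. Peaks of HSC 1, HSC 2 and LSC 2 over Tmem120a are included in the number and covered share of Por in the deposited lists. With equal-sized lists HSCs stood above LSCs in number at Por alone (6.78% of all genes), and LSCs above HSCs at Fads1 and Fads2 (8.16%). Fads1 had 2, 1, 6 and 6 peaks in these lists, which reach to weaker peaks in LSCs, and 10, 8, 7 and 6 in the deposited lists.

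The share of the window under peaks, drawn in the plot of covered percentages, gave the same 9 members in the deposited lists (48.4% of all genes), with none in the other direction (1.32%). At Por the share was 27.0% and 36.6% in HSCs and 9.51% and 12.5% in LSCs, and in the equal-sized lists 16.2%, 21.9%, 9.05% and 12.5%. Alox5 and Por were the 2 members with HSCs above LSCs in the equal-sized lists (12.5% of all genes). Fads1, at 8.18%, 10.3%, 16.6% and 27.3%, and Fads2, at 0%, 0%, 4.21% and 0.876%, were the 2 with LSCs above HSCs (18.1%), and the LSC values of Fads1 include the edge of the Fen1 peak.

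In the deposited lists the surplus of HSC peaks lay away from the starts. At the starts (either end for Fads1 and Alox15) the members had 9, 10, 10 and 8 peaks, a ratio of geometric means of 1.06, while elsewhere in the windows they had 105, 130, 22 and 25, a ratio of 4.98. All protein-coding genes had ratios of 1.42 and 4.29. With equal-sized lists the members had 7, 6, 9 and 8 peaks at starts (ratio 0.764) and 29, 20, 20 and 25 elsewhere (ratio 1.08). The peaks elsewhere had a median fold of 8.11, 7.73, 7.76 and 5.82, beside 7.37, 5.90, 8.66 and 7.63 over all peaks of each library. Of the peaks elsewhere, 82, 91, 16 and 20 had a fold under 10. Of the HSC 1 peaks elsewhere, 46.7% met a peak of HSC 2, and 35.4% of those of HSC 2 met a peak of HSC 1; for LSC 1 and LSC 2 the shares were 36.4% and 32.0%.

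**Figure D4:**
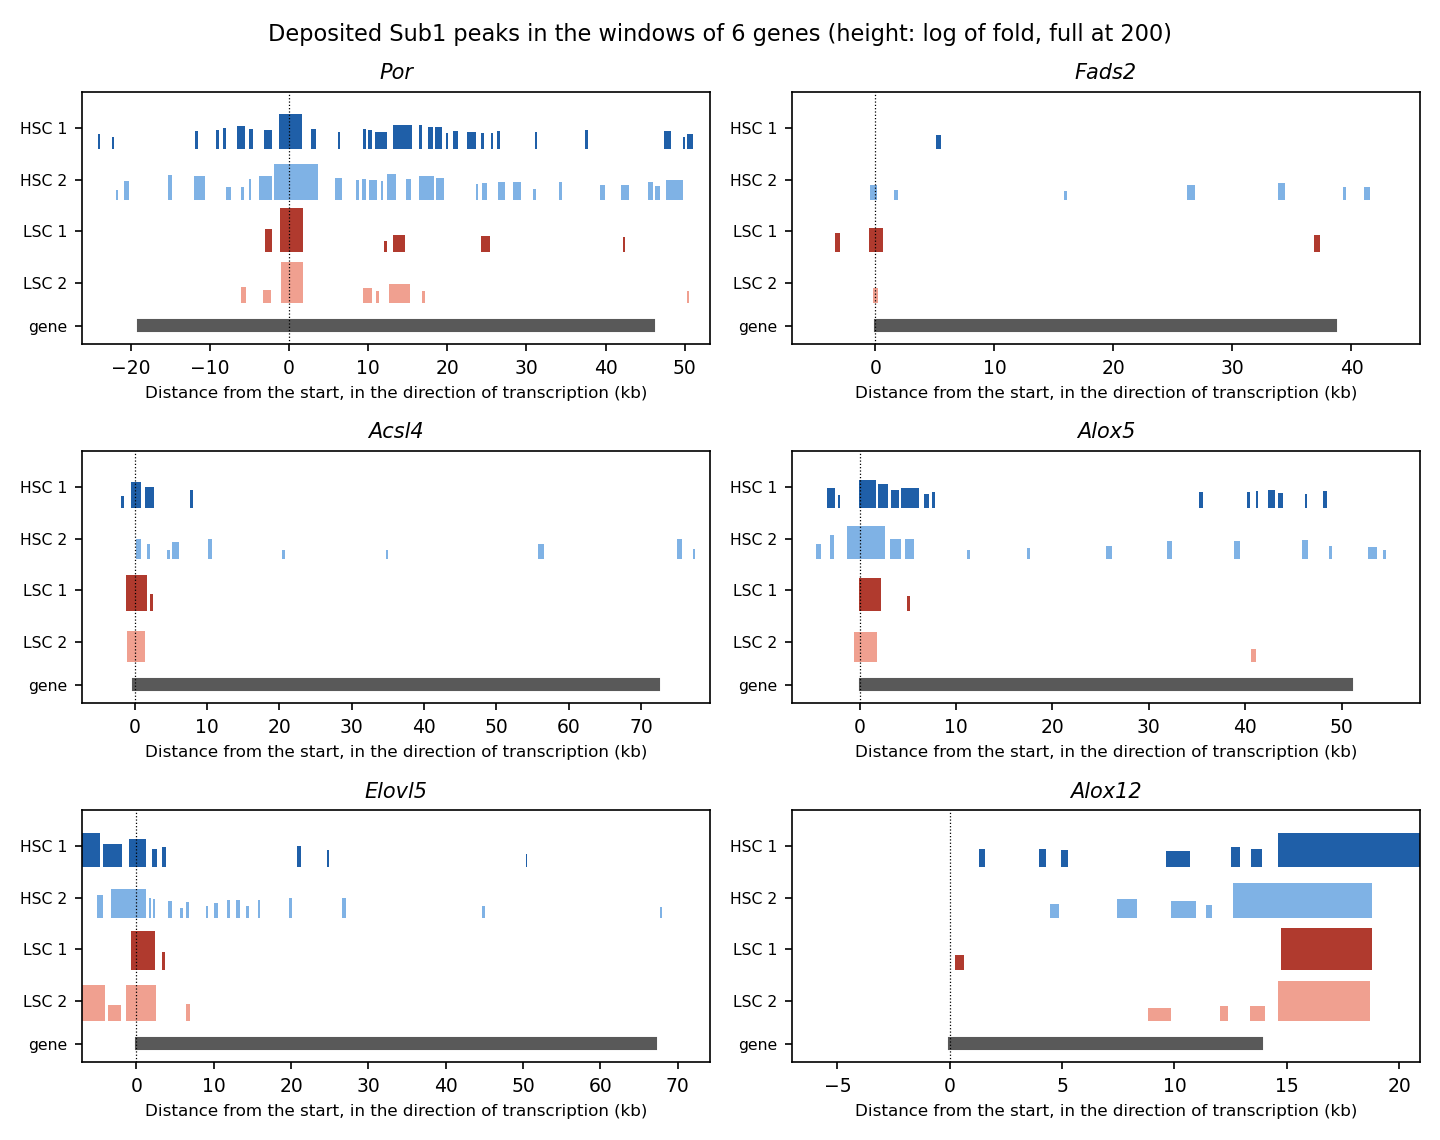
Peaks of the 4 libraries in the windows of 6 genes, drawn along the direction of transcription with the start at 0 (kb); each box spans a peak, its height is the logarithm of the fold with full height at 200, and the grey bar is the gene span. Peaks at the start recur in all 4 rows of Por, Acsl4, Alox5 and Elovl5, while most other boxes belong to the HSC rows; the tall boxes at the right of Alox12 lie over its neighbours.

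The maps of peaks show how seldom the peaks away from starts recurred. Merged over libraries, the windows held 191 regions under peaks, of which 178 lay away from the starts. Of these, 132 were found in 1 library, 30 in 2, 10 in 3 and 6 in all 4. Those in all 4 included regions over neighbouring genes: Emg1 in the Lpcat3 window, Fen1 in the Fads1 window, and Rnasek with 0610010K14Rik in the Alox12 window. The rest lay at Por and inside Fads1. HSC 1 and HSC 2 alone shared 22, and no region was found in both LSC libraries alone, in lists that are longer for HSCs. With equal-sized lists 49 regions lay away from the starts, 32 in 1 library, 10 in 2, 3 in 3 and 4 in all 4, and 3 were shared by the HSC libraries alone and 3 by the LSC libraries alone. Beside those of Por, regions in 3 or more libraries included chr6:116454983-116456864 inside Alox5 (fold 10.3 and 11.5 in HSCs, 6.13 in LSC 1, none in LSC 2). Another was chr1:78702500-78703140 near the far end of Acsl3 (5.89, 23.3, 6.49 and none). In the merged region chr19:10185018-10187140 inside Fads1 (9.09, 10.2, 10.5 and 5.09) no base lay under peaks of all 4 libraries. The HSC peaks spanned 10186330-10187140 and 10186083-10187128, and the LSC peaks 10185018-10185647 and 10185639-10186096.

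Promoter sequence was read for 8 of the 10 members, with Fads1 and Alox15 not among the 17492 genes of the promoter table. Counted over 300 bases, 250 before and 50 after the start, CpG dinucleotides numbered 36 at Lpcat3, 33 at Acsl3 and Acsl4, 27 at Por, 23 at Fads2, 20 at Elovl5, 8 at Alox12 and 7 at Alox5, against a median of 13 over 21263 promoters. Alox5 and Alox12 were the 2 of these 8 members below the median. The plot of start peaks by CpG number sets this beside genes in classes of CpG number, which do not hold all 21887 protein-coding genes. The share with a start peak in all 4 libraries was 6.94% of 4596 genes with 0 to 4 CpG and 28.8% of 1933 with 5 to 9. It was 65.1% of 3014 with 10 to 19, 80.2% of 3085 with 20 to 29 and 76.4% of 2103 with 30 or more. Alox5 had its start peaks with a CpG number at which 28.8% of genes did, and Fads2 lacked one in HSC 1 with a number at which 83.4% of genes had one in that library.

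**Figure D5:**
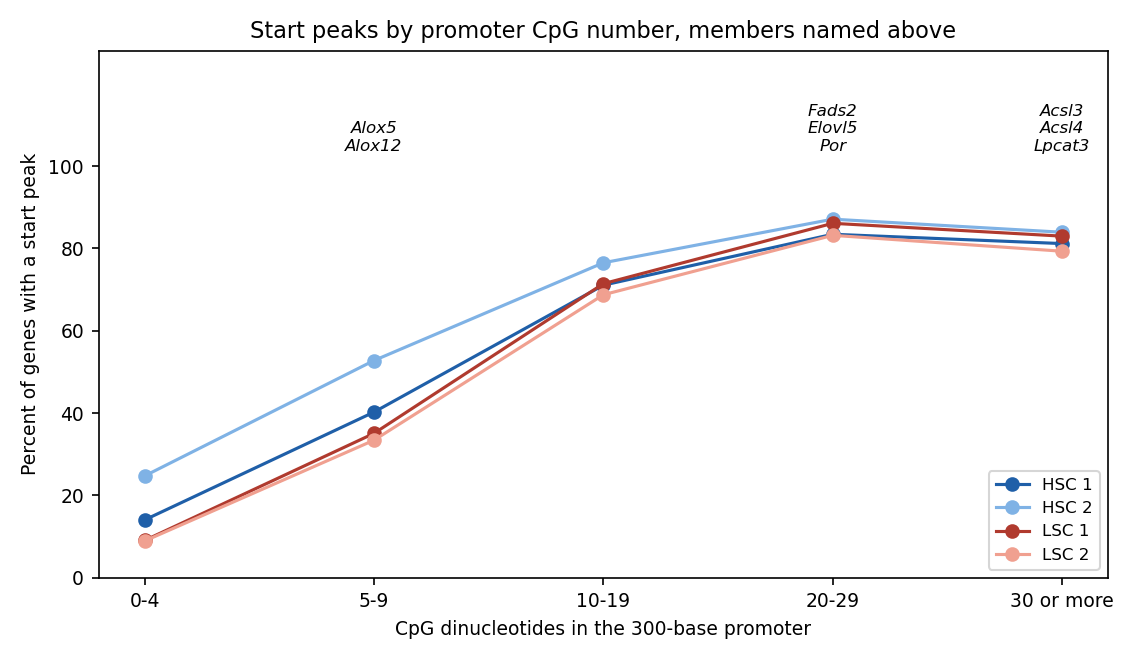
Percent of protein-coding genes with a Sub1 peak within 1 kb of the start, by the number of CpG dinucleotides in the 300-base promoter, 1 line per library. From fewest CpG to most, the classes hold 4596, 1933, 3014, 3085 and 2103 genes, not all protein-coding genes. Gene names above the lines mark the class of each of the 8 members with a promoter sequence. The lines climb from under 25% to over 79%, and Alox5 and Alox12 fall in the class of 5 to 9 CpG.

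Of 7 motifs searched on both strands of the same 300 bases, the GC box GGGCGG was present in 7 of the 8 promoters, all but Elovl5, beside 46.2% of all promoters. Elovl5 was the promoter with the E-box CACGTG (7.84% of all promoters), and it held 2 CCAAT boxes; CCAAT was also in Acsl3 and Lpcat3, 3 of 8 beside 38.2%. TGANNNNGC, the core of the antioxidant element, was in Acsl4, Elovl5 and Alox12 (41.7% of all promoters). None of the 8 held the TATA box TATAAA (12.6%), the ETS site CCGGAAG (11.6%) or the sterol element TCACNCCAC (1.19%). No motif contains another, and matches may overlap at their edges. These counts describe sequence, and a match is not a binding site.

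The 58 other genes of the pathway ranged from activation to eicosanoid synthesis and lipid control. Of their windows 54, 58, 49 and 45 held a peak (71.9%, 87.2%, 64.2% and 59.7% of all genes), with 43 in all 4 libraries (74.1%, beside 58% of all genes). Their median window was 41.5 kb against 27.2 kb for all genes, and the part of this length in the counts was not tested. A start peak in all 4 was found at 39 (67.2%, beside 48.6% of all genes): at 4 of 8 genes of activation, 5 of 8 of desaturation, 8 of 10 of elongation, 8 of 11 of phospholipid remodelling, 3 of 3 of ether lipid synthesis, 6 of 12 of the lipoxygenase and eicosanoid group and 5 of 6 of lipid control. Windows with peaks in HSC 1 and HSC 2 alone numbered 6 (10.3%, beside 8.21% of all genes), those of Acsbg1, Elovl2, Lpcat2, Alox8, Alox12e and Ephx2, and the reverse was met by 0.

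Lpcat2, an acyltransferase that like Lpcat3 acts on lysophospholipids, had the strongest of these: its start peak had a fold of 25.1 and 25.9 in HSC 1 and HSC 2, with no peak in its window in LSC 1 or LSC 2. At the other 5 the strongest HSC peak of a library had a fold from 3.93 (Elovl2, HSC 1) to 21.5 (Alox12e, HSC 2). Among equal-sized lists Lpcat2 and Alox12e were in HSCs alone, 2 of 58 or 3.45% beside 0.416% of all genes. In LSCs alone were Scd1, the desaturase that makes monounsaturated chains, and Mboat1, an acyltransferase, also 3.45%, beside 2.37% of all genes. At Mboat1 the start peak had a fold of 8.84, 6.61, 38.6 and 20.2, and peaks of that fold in HSCs were too weak for the equal-sized lists. At Scd1 the strongest peak of the window had a fold of 11.0 in HSC 2, 48.3 in LSC 1 and 4.00 in LSC 2. HSC 1 had none. Neither LSC library had a start peak at Scd1, and HSC 2 alone had one, with a fold of 9.09. Alox5ap, which presents arachidonic acid to Alox5, and Lta4h, which makes a leukotriene from the product of Alox5, were chosen after their values were seen. The start peak of Alox5ap stood at percentiles 94.2, 99.2, 73.5 and 87.0, with HSCs above LSCs, and that of Lta4h at 99.2, 94.5, 96.6 and 96.1, where the groups overlapped. Of the 39 pathway genes that could be ranked, HSCs stood above LSCs at 8 (20.5%, beside 23.1% of all ranked genes) and LSCs above HSCs at 14 (35.9%, beside 23.8%).

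By the share of their windows under peaks, 2 members differed most between group means in the deposited lists, Por by 20.8 and Lpcat3 by 19.5 percentage points. Of 3633 genes with a window of like length, Ntng2 and Plekhg3 were closest to Por over the 4 libraries, at Euclidean distances of 2.00 and 2.63 percentage points. Of 5081 such genes, Hnrnpm and Srpk1 were closest to Lpcat3, at 1.60 and 2.22. Within 5 percentage points lay 14 genes for Por and 33 for Lpcat3.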

How the data were processed

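Sub1 CUT&Tag was measured in 2 HSC and 2 LSC libraries, with 1 deposited peak list each. Per the labels' protocols, 2000 to 5000 HSCs and 17 to 20 PCR cycles were used. The submitters' processing notes name FastQC 0.11.5, Bowtie2 2.2.9 with the build mm10, MACS2 and ChIPseeker. What was done with duplicate reads is not given in the sources used here, and no IgG control was used here. The deposited lists give for each peak a score, a fold (a ratio of pileup to background made by the authors' caller), a −log10 p and a −log10 q. The lowest −log10 q was 5.21, 5.26, 5.36 and 5.41 in HSC 1, HSC 2, LSC 1 and LSC 2.

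Whole pileups and 1 background per library were solved from fold and −log10 p (100% of 3000 peaks checked per library were whole within 0.05). Peaks overlapping a window by at least 1 base were counted for all 21887 protein-coding genes. Starts came from the RefSeq promoter table. For equal-sized lists the top 34185 peaks by −log10 p were taken from each library, with lists of 17092 as a further alternative. Log2 totals were compared by a two-sided exact permutation test over 6 assignments of the libraries. Members and lists were chosen with earlier results of these data known. Named are the members, pathway genes (58 of 58 matched) with peaks in both libraries of 1 group alone in the deposited or equal-sized lists, neighbours in the windows, and, for the 2 members whose covered share differed most, the 2 genes of window length within 1.5 times closest in covered share. Alternatives were other window sizes, summits, a −log10 q of at least 10, list sizes and leaving out each library; for start peaks and pathway genes they were added after the data were seen. Scripts were tested on simulated data. SciPy 1.17.1, NumPy 2.4.6 and pandas 2.3.3 ran under Python 3.11.15, with figures by matplotlib 3.10.9.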

Additional observations from a re-analysis of the deposited data

How the results depend on the processing

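The log2 difference in number of peaks between HSC and LSC libraries (1.96) was −0.016 in equal-sized lists and 0.39 in lists of 17092 peaks, and within 1 kb of the starts it was 0.08. The log2 difference in covered length (1.21) was 0.15 and 0.25 in those lists and −0.12 within 1 kb of the starts. Stricter −log10 q, other extensions of the gene body and summits gave 1.87 to 2.06 for number and 1.15 to 1.38 for length. Leaving out 1 library gave 1.81 to 2.11 for number and 0.96 to 1.46 for length. With the replicate number as a block the values were 1.96 and 1.21, unchanged because each number occurs once per group, and the exact paired test has a smallest p of 0.5; the numbers are not stated to pair the libraries. Members with a peak in HSCs alone numbered 0 to 1 when 1 library was left out, the 1 being Alox15 without LSC 1, and members in LSCs alone numbered 0 to 0. In the equal-sized lists 1 member, Fads2, was in LSCs alone. With 1 library left out, members with a peak in all libraries numbered 9 to 10, with a start peak in all 7 to 8, and pathway genes 43 to 47. With 2 libraries a group, no p under 0.33 can be reached, and a peak that was not called is not shown to be absent.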
